A study of Rattus norvegicus with 4 samples.

Results

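The genes described here are 10 listed regulators of vascular calcification, the deposition of calcium phosphate mineral in the arterial wall: Mgp, Spp1, Enpp1 and Ankh, known as inhibitors, and Alpl, Runx2, Slc20a1, Slc20a2, Sox9 and Msx2, listed as promoters of the process. A probe set, the group of short probes that reports one transcript on an Affymetrix array, was taken when its annotation named exactly 1 gene symbol and that symbol was on the list. This gave 10 probe sets of 8 genes, out of 23707 probe sets and 12922 genes in all. Runx2 and Sox9 had no probe set that met the rule and are not analysed here. Of the 8 genes, 4 are inhibitors and 4 promoters.

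The samples were rat aortic smooth muscle cells, kept in medium with 10% fetal bovine serum for 24 h after plating at a density of 10000 per cm2, then without serum and insulin for 72 h. The 2 treated samples were exposed for 3 h to 30 ng/mL of the platelet-derived growth factor dimer BB (PDGF-BB), which makes smooth muscle cells divide, and the 2 control samples for as long to the vehicle, made of 10 mM acetic acid with 0.2% bovine serum albumin. The study's stated purpose was to find early genes of the change in smooth muscle phenotype. Strain, passage and whether cultures were separate for each array were not given in the sources used here, so p-values cover only the spread between these arrays, which may be technical.

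Mineral forms where the supply of calcium and phosphate outruns the inhibitors. Inorganic pyrophosphate blocks the growth of hydroxyapatite crystals: ENPP1 makes it from ATP outside the cell, ANKH takes part in its export or that of ATP, and tissue-nonspecific alkaline phosphatase, the product of Alpl, breaks it down to phosphate. Smooth muscle cells take up phosphate through the sodium-coupled transporters PiT-1 (Slc20a1) and PiT-2 (Slc20a2). Matrix Gla protein and osteopontin restrain mineral in the matrix, and matrix Gla protein also restrains bone morphogenetic protein (BMP) signals. The transcription factors RUNX2, MSX2 and SOX9 belong to the bone and cartilage programme that calcifying smooth muscle cells can take on. The place of Slc20a2 among promoters is not settled, since loss of PiT-2 is itself known to go with calcification.

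The arrays were alike in scale, with median intensities of 145 and 148 in vehicle and 144 and 132 in PDGF-BB, and log2 values correlated at 0.995 and 0.993 within the groups and 0.959 to 0.963 between them. The brightest of 27 control probe sets for Bacillus transcripts read 80.3 at most, which serves as a rough guide to background. All 8 smooth muscle markers exceeded this guide. Of these, 3 fell (Lmod1, Smtn and, in 1 of 2 probe sets, Myh11) and 5 were not called. Acta2, smooth muscle actin, lay at 11302 and 11945 (vehicle) and 10953 and 10802 (PDGF-BB). Of the other cell types, 0 of 6 endothelial and 0 of 3 osteoblast markers exceeded it in the mean of either group, against 2 of 6 for macrophages and leukocytes, 4 of 8 for adventitial fibroblasts and 3 of 7 for cartilage. Bglap, the osteocalcin gene that marks mature osteoblasts, read at most 1.25 on any array. The treatment showed in Egr1, an immediate early factor, which rose by 2.34 (SE 0.09), and in Klf4, by 2.94 (SE 0.09) on the log2 scale; the larger of their adjusted p-values from limma was 0.000710. Tagln, the SM22-alpha gene, had a log2 fold change of 0.02 (SE 0.09), whose sign turned to -0.03 and -0.11 after quantile and cyclic loess normalization. The other smooth muscle markers not called were Myocd (0.39), Cnn1 (0.26), Des (0.17) and Acta2 (-0.10). Lmod1, which encodes leiomodin 1, fell by 1.70 (SE 0.11, limma adjusted p 0.00246) and Smtn, which encodes smoothelin, by 0.79 (limma adjusted p 0.00930, SE 0.10), both named after their values were seen. Lmod1 stayed called without any 1 array, while Smtn lost its call without either vehicle array (0.0879 and 0.0641) and without PDGF-BB replicate 2 (0.0531). Myh11, smooth muscle myosin, fell by 0.70 (SE 0.13, adjusted p 0.0256 by limma); in the fits without 1 array its adjusted p rose to 0.148 and 0.127 when vehicle replicate 1 or 2 was left out and to 0.0579 when PDGF-BB replicate 2 was.

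After 3 h of PDGF-BB the transcripts of all 4 measured inhibitors and of both phosphate transporters were higher, while Alpl and Msx2 were not called. Of the 8 genes, 6 rose and 0 fell at a limma adjusted p under 0.05, the same counts as at an unadjusted p under 0.05, against 12.4% of all genes that rose and 27.7% that changed in either direction. The list was chosen with earlier results of these data known, so these shares do not test it. The log2 fold changes, computed on log2(intensity + 16) as PDGF-BB minus vehicle, ran from -0.05 to 2.49 with a median of 1.14, beside a median of -0.03 over all 12922 genes. Of the 6, 4 were at least 2-fold higher on that scale: Mgp, Enpp1, Slc20a1 and Slc20a2, a size that 4.6% of all genes reached. In all 6, both PDGF-BB arrays lay above both vehicle arrays, which was so for 29.7% of all genes. Arrays of whole cultures cannot tell a change in the amount of RNA per cell from a change in the number of cells that hold it.

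**Figure D1:**
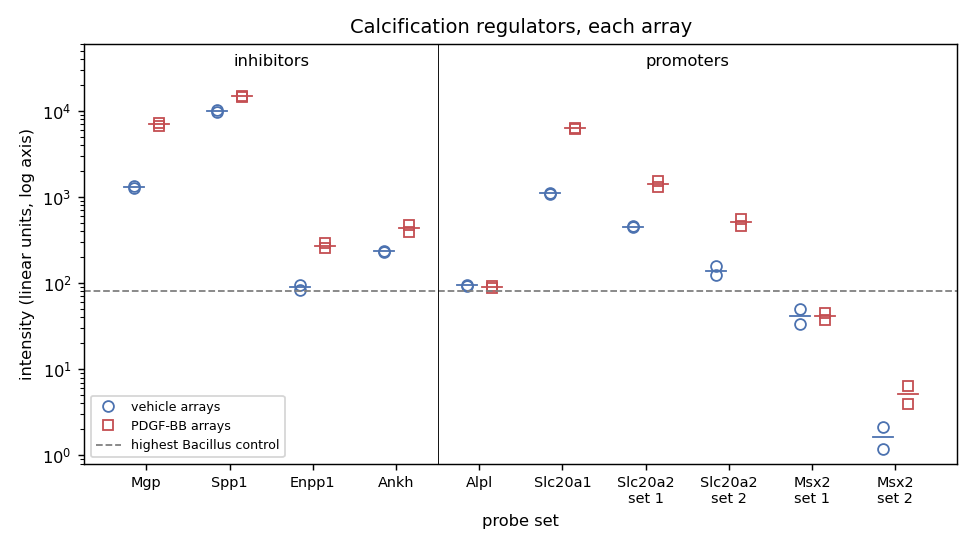
Intensity of each probe set of the 8 measured genes on each array (log axis), with vehicle arrays as circles, PDGF-BB arrays as squares, short bars for the group means of 2 arrays and a dashed line at 80.3, the highest Bacillus control. The PDGF-BB arrays sit above the vehicle arrays for Mgp, Spp1, Enpp1, Ankh, Slc20a1 and Slc20a2, while Alpl lies close to the line and Msx2 below it.

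Mgp encodes matrix Gla protein, a small vitamin K-dependent protein that keeps arteries free of mineral. It read 1287 and 1329 with vehicle and 7307 and 6682 with PDGF-BB. The groups were far apart relative to the spread within them: any PDGF-BB array was 5.03 to 5.68 times any vehicle array. Mgp had a log2 fold change of 2.40 (SE 0.10, 95% interval 2.15 to 2.66, limma adjusted p 0.000802), and 0.975% of genes had a larger one. The call held in each of the 4 fits without 1 array, with log2 fold changes of 2.34 to 2.47.

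Spp1 encodes osteopontin, a phosphoprotein of the matrix that binds crystals and is also a mark of proliferating smooth muscle cells. It read 9856 and 10327 with vehicle and 15100 and 14560.2 with PDGF-BB. The groups did not overlap, but the change was the smallest of the called genes, at 0.55 on the log2 scale (SE 0.09, 95% interval 0.32 to 0.79, limma adjusted p 0.0177). The probe set was among the brightest of every array, at percentile 99.5 to 99.98, where the highest readings were 16721 to 17218. Among the 121 genes above 8000 with vehicle, 4.13% were called higher, against 12.4% of all genes. In the 4 fits without 1 array the log2 fold change was 0.52 to 0.59, and the call ended in each: the adjusted p was 0.148 and 0.118 without vehicle replicate 1 or 2, and 0.0559 and 0.0570 without PDGF-BB replicate 1 or 2. Macrophages are another known source of osteopontin, and 2 of 6 macrophage and leukocyte markers exceeded 80.3. Their summed intensity, mostly that of Cd14, was 1620.1 and 1669 with vehicle and 1490 and 1369 with PDGF-BB, and none of the 6 markers was called. Log2 fold changes were negative for Cd14 (-0.25), Ptprc (-0.37) and Itgam (-0.16). Those of Aif1 (0.13), Cd68 (0.11) and Csf1r (0.11) had the same sign as Spp1. Ptprc, Csf1r, Cd68 and Itgam lay below 80.3 on every array. The part of such cells in the Spp1 reading was not tested.

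Both genes that supply pyrophosphate rose as well. Enpp1, the ectonucleotidase that makes pyrophosphate, read 94.1 and 84.2 with vehicle and 289.6 and 254 with PDGF-BB. The vehicle arrays were close to the background guide and the PDGF-BB mean was 3.38 times it. On the log2 scale the change was 1.45 (SE 0.11, 95% interval 1.15 to 1.76, limma adjusted p 0.00356), and because the vehicle level is dim it moved with the offset, from 1.13 with an offset of 64 to 1.60 with an offset of 1. The call held without any 1 array.

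Ankh, whose membrane protein serves the export of pyrophosphate or ATP, read 235 and 231 with vehicle and 471 and 392 with PDGF-BB. The vehicle pair was tight and the PDGF-BB pair wider, with a ratio of PDGF-BB to vehicle between 1.67 and 2.03 over the 4 pairs of arrays. This gave a log2 fold change of 0.84 (SE 0.12, 95% interval 0.51 to 1.16, limma adjusted p 0.0135). The call ended without vehicle replicate 1 (0.0940) or vehicle replicate 2 (0.0948) and held without either PDGF-BB array.

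Alpl, whose product destroys pyrophosphate, was not called. It read 95.1 and 92.7 with vehicle and 87.5 and 92.3 with PDGF-BB. The difference of -0.05 on the log2 scale (SE 0.09, limma adjusted p 0.710) turned to 0.02 with array medians subtracted and 0.01 after cyclic loess. The 95% interval was -0.29 to 0.18. All 4 readings were within 1.2 times the background guide, and the probe set is of the s type, whose probes can match transcripts of more than 1 gene, so a low level of the transcript and the absence of one cannot be told apart here, and the interval sets no limit on a change of the Alpl transcript itself. In these arrays the gene that makes pyrophosphate and the one that serves its export were higher, while no change was detected for the one that removes it.

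The upstream sequence of 4 of the 8 genes was at hand, taken from RefSeq on the rat assembly GRCr8; Mgp, Enpp1, Slc20a1 and Slc20a2 had no entry. The 250 bases before the annotated start are shown for Spp1 and Ankh, which rose, and for Alpl, which was not called, because the pair that rose differs widely in base composition. Each is written 5′ to 3′ on the gene's strand, with CG dinucleotides in capitals. Spp1 lies at chr14:5619805-5620054 (minus strand), Ankh at chr2:79883201-79883450 (plus strand) and Alpl at chr5:155289786-155290035 (minus strand).
Spp1: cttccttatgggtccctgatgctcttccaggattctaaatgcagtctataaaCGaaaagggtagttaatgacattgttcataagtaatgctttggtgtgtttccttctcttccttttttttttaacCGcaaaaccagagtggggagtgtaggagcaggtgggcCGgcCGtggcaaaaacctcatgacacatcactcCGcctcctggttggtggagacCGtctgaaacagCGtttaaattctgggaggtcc
Ankh: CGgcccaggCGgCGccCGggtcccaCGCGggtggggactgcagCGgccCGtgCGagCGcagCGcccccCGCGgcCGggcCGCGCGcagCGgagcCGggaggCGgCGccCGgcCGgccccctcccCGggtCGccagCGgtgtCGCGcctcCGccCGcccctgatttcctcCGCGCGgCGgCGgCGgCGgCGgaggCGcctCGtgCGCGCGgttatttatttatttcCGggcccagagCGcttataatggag
Alpl: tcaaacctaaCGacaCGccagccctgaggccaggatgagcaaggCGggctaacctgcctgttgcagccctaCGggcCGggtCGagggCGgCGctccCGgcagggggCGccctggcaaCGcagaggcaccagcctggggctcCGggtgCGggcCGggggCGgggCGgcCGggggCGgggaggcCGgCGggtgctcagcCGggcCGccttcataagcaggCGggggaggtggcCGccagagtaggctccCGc
The Spp1 stretch has 46.8% G and C and 7 CG dinucleotides, a number that 45.2% of 33465 upstream sequences of this length reach. The Ankh stretch has 79.2% G and C and 45 CG dinucleotides, reached by 0.415% of them, and the Alpl stretch has 76.0% and 25, reached by 9.74%. CG-rich sequence lies before a gene that rose and before one that was not called. Both strands were searched for sites of factors of the early growth factor response and of the bone programme: AP-1 (TGANTCA), CRE (TGACGTCA), EGR (GCGNGGGCG), RUNX (TGTGGT) and the CArG box. There were 0 matches before Spp1, Ankh, Alpl or Msx2, where 6.34%, 1.59%, 4.29%, 14.5% and 1.5% of all such sequences hold the respective motif. This says only that these letters are not in these windows. For RUNX only TGTGGT was searched, not TGCGGT, which the Spp1 stretch holds on the other strand (as accgca).

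Both phosphate transporters rose. Slc20a1, which encodes PiT-1, read 1113 and 1088.5 with vehicle and 6205 and 6328 with PDGF-BB. Both pairs were tight and any PDGF-BB array was 5.57 to 5.81 times any vehicle array. Its log2 fold change of 2.49 (SE 0.09, 95% interval 2.26 to 2.72, limma adjusted p 0.000710) was exceeded by 0.867% of genes, and it stayed between 2.48 and 2.51 without any 1 array.

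Slc20a2, which encodes PiT-2, has a pair of probe sets. The brighter one read 457 and 450.3 with vehicle and 1523 and 1304 with PDGF-BB, and the dimmer one 123 and 157 against 561 and 466. Neither overlapped between groups. Their log2 fold changes were 1.60 (SE 0.11, limma adjusted p 0.00274) and 1.77 (SE 0.16, limma adjusted p 0.00489), a difference within their errors, and both calls held without any 1 array. The 95% intervals of Slc20a1 (2.26 to 2.72) and of the brighter Slc20a2 probe set (1.30 to 1.90) did not overlap; the difference between these genes was not tested further, and probe sets of different genes need not respond alike.

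Msx2, a homeobox factor of the bone programme that acts below BMP signals, stayed below the background guide. Its brighter probe set read 33.6 and 50.25 with vehicle and 37.5 and 44.8 with PDGF-BB, so the groups overlapped. The fitted difference was -0.01 (SE 0.18, limma adjusted p 0.983), with a sign that turned under 4 alternatives, between -0.22 and 0.20 over all of them. The second probe set read 1.18 and 2.11 against 6.30 and 3.93, a difference of 0.26 on the log2 scale (SE 0.10, limma adjusted p 0.154). These readings are at the floor of the table, and although this probe set passed with array medians subtracted (0.0416), its size depends on the offset, from 0.07 with 64 to 1.2 with 1.

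**Figure D2:**
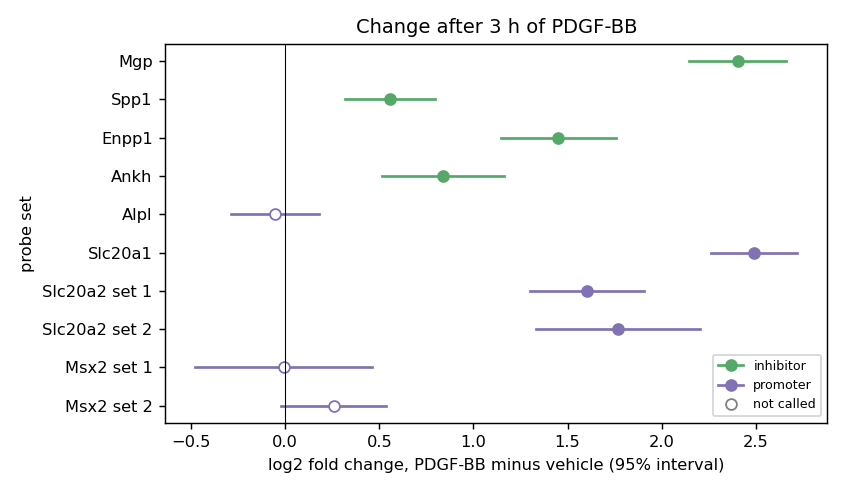
Log2 fold change of each probe set (horizontal axis, PDGF-BB minus vehicle on log2(intensity + 16)) with its 95% interval from limma, inhibitors in green, promoters in purple and probe sets not called as open points. Slc20a1 at 2.49 and Mgp at 2.40 lie farthest to the right, and the intervals of Alpl and both Msx2 probe sets include 0.

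Set side by side, the inhibitors gave 4 of 4 higher with a median log2 fold change of 1.14 (0.55 to 2.40), and the promoters 2 of 4 higher with a median of 0.80 (-0.05 to 2.49), both against 12.4% of all genes higher. With 4 genes in each class, the ranges overlapped over most of their length, and no score over so few chosen genes was tested. The genes were listed with earlier results of these data known, so the counts do not test the classes. Among the promoters both transporters rose. Alpl and Msx2 were not called, and their vehicle means were 1.17 and 0.52 times the background guide. Without Slc20a2 the promoters' median was -0.01, over 3 genes. The 2 largest changes came from opposite classes, Slc20a1 at 2.49 and Mgp at 2.40, with overlapping 95% intervals.

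**Figure D3:**
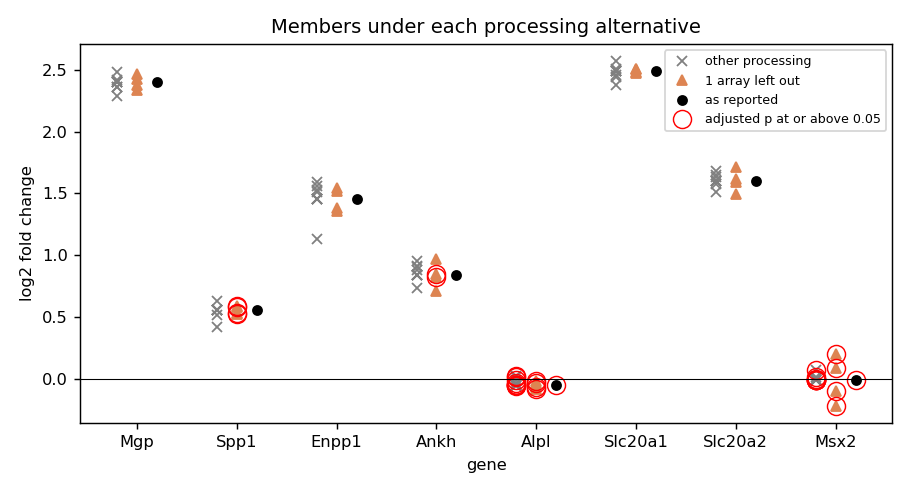
Log2 fold change of each gene (vertical axis) as reported, in each fit without 1 array and under the other processing alternatives, with red rings where the limma adjusted p was 0.05 or more. Mgp, Enpp1, Slc20a1 and Slc20a2 have no ring, Spp1 is ringed in the 4 fits without 1 array, Ankh in those without a vehicle array, and Alpl and Msx2 scatter around 0.

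The number of called listed genes was 6 under each of the 9 alternatives that kept all arrays, of 8 measured, or of 7 with dim probe sets left out. Over all genes, 2584 to 4775 of 12922 were called in those settings, and 4730 of 9104 with dim probe sets left out. Without any 1 array the log2 fold changes of the 6 genes stayed between 0.52 and 2.51, and Spp1 and Ankh lost calls in such fits. The genes nearest to Slc20a1 in pattern, by root mean square distance of centred log2 values over the 4 arrays, were Fxyd5 (0.041), which encodes a small regulator of the sodium pump, Egfr (0.043), the epidermal growth factor receptor, and Lrrc8c (0.044), a subunit of volume-regulated anion channels. Their log2 fold changes were 2.48 (SE 0.09), 2.53 (SE 0.09) and 2.44 (SE 0.09). The Egfr value is that of the brightest of its 3 probe sets, and the others were not compared. With 4 arrays in 2 groups such a distance mainly matches the size of the change.

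Other inhibitors of calcification moved in both directions. Of 19 measured, 6 rose, 1 fell and 12 were not called by limma, with a median log2 fold change of 0.06, beside 12.4% of all genes higher and 15.3% lower. Nt5e, the CD73 enzyme that makes adenosine from AMP and whose loss causes arterial calcification, read 26.4 and 23.0 with vehicle and 643 and 509 with PDGF-BB. On the log2 scale it rose by 3.85 (SE 0.14, limma adjusted p 0.000720). Its vehicle readings lay below the background guide, and the size ran from 2.84 with an offset of 64 to 4.48 with an offset of 1. Axl, the receptor of GAS6 that supports smooth muscle survival, rose by 1.04 (SE 0.08, limma adjusted p 0.00380). Its reading went from 2595 ± 2.03 to 5358 ± 28.5 (SD, n = 2). Gas6 itself was not called, at -0.19 (limma adjusted p 0.190), though 1 of its 3 probe sets was called lower. Twist1, a factor that restrains RUNX2, rose by 0.98 (SE 0.09, limma adjusted p 0.00516), and by 0.70 in its other probe set, which was also called. The first call ended without vehicle replicate 1 (0.0581).

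Nog, which encodes the BMP antagonist noggin, was the inhibitor that fell. It read 179.75 and 192 with vehicle and 15.3 and 15.9 with PDGF-BB, below the background guide. Its change of -2.68 on the log2 scale (SE 0.09, limma adjusted p 0.000705) ran from -3.50 with an offset of 1 to -1.65 with an offset of 64. Smad7, an inhibitory Smad, Chrd, which encodes the BMP antagonist chordin, and Tnfrsf11b, which encodes the RANKL decoy osteoprotegerin, were named after their values were seen. They rose by 0.58 (SE 0.10), 0.42 (SE 0.09) and 0.39 (SE 0.09), and limma gave adjusted p-values of 0.0229, 0.0396 and 0.0403. Each lost its call in all 4 fits without 1 array (0.0637 to 0.163, 0.0729 to 0.249 and 0.0829 to 0.259). The list's count of calls was 3 without vehicle replicate 1 and 4 without each of the other arrays.

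Of 25 other promoters of calcification, 6 rose, 4 fell and 15 were not called, with a median log2 fold change of 0.09, beside 12.4% of all genes higher and 15.3% lower. Sgk1, a kinase linked to osteogenic signalling in smooth muscle, rose by 3.56 (SE 0.10, limma adjusted p 0.000552), from 82.6 and 86.1 with vehicle to 1240 and 1099.9 with PDGF-BB. Bmp2, the ligand that drives the bone programme, read 59.2 and 65.6 against 157 and 134, a rise of 1.04 on the log2 scale (SE 0.12, limma adjusted p 0.00741). Its vehicle readings lay below the background guide, and the size ran from 0.73 with an offset of 64 to 1.21 with an offset of 1. The other probe set was also called, at 0.71, and the call of the brighter one ended without vehicle replicate 1 (0.0668) or 2 (0.0538). Of 3 BMP receptor genes on the list, Bmpr2 was not called, at -0.31 with overlapping arrays. Acvr1 rose by 0.69 (limma adjusted p 0.0151, SE 0.10), with 3 of 3 probe sets called, and Bmpr1a fell by 0.82 (SE 0.15, limma adjusted p 0.0261). Both lost the call in each fit without 1 array, at 0.0506 to 0.120 for Acvr1 and 0.0590 to 0.133 for Bmpr1a.

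Lrp6, a Wnt co-receptor, stands among the promoters by the list alone, and its role in these cells was not tested. It had the largest fall on that list, from 1392 and 1538 with vehicle to 449 and 364 with PDGF-BB. This change of -1.82 on the log2 scale (SE 0.14, limma adjusted p 0.00331) stayed called without any 1 array. Sort1, whose product sortilin loads alkaline phosphatase into vesicles, fell by 0.47 (limma adjusted p 0.0326, SE 0.10). Its other probe set was not called lower, and the call ended without each array in turn (0.0512 to 0.204). Cbfb, Tgm2, Atf4 and Bmp6, named after their values were seen, made up the count: they had log2 fold changes of 0.68, 0.63, 0.46 and -0.39. Cbfb lost its call without either vehicle array (0.0980 and 0.108), and Tgm2, Atf4 and Bmp6 lost theirs without each of the 4 arrays. The other probe set of Tgm2 was not called, at 0.55 (limma adjusted p 0.0854). Of the 4 probe sets of Bmp6, 1 was called lower. Among genes counted as not called, Smad5 had 1 of 4 probe sets called higher and 1 lower. Lrp5 had 1 of 2 called lower. The count of calls on the list was 2 without either vehicle array, and without PDGF-BB replicate 1 or 2 it was 6 and 4, respectively. The inflammatory inducers Tnf and Il1b read below 80.3 on all arrays.

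Among 17 other genes of phosphate and pyrophosphate handling, 5 rose, 0 fell and 12 were not called by limma (at an unadjusted p under 0.05, 5 were higher and 2 lower), with a median log2 fold change of 0.05. Over all genes 27.7% were called, 12.4% higher and 15.3% lower. The share called in either direction is near that background, while 29.4% of the list was called higher. Enpp3, a relative of Enpp1, read 43.3 and 37.2 with vehicle and 170.1 and 115 with PDGF-BB. On the log2 scale it rose by 1.47 (SE 0.20, limma adjusted p 0.0115), with vehicle readings below the background guide and a size from 0.97 with an offset of 64 to 1.77 with an offset of 1. Panx1, a channel that releases ATP, rose by 0.65 (limma adjusted p 0.0146, SE 0.10), with 1 of its 2 probe sets called, the other being at 0.11 (limma adjusted p 0.744). Xpr1, the phosphate exporter, rose by 0.62 (SE 0.14, limma adjusted p 0.0398). Ano6, a lipid scramblase, and Ppa1, a cytosolic pyrophosphatase, named after their values were seen, rose by 0.55 and 0.46. The sodium-phosphate transporters of the other family, Slc34a1, Slc34a2 and Slc34a3, were not called, with log2 fold changes of 0.03, -0.10 and 0.12, and the last 2 read at most 16.1 on any array. In the 4 fits without 1 array, log2 fold changes were 1.22 to 1.73 for Enpp3 and 0.59 to 0.70 for Panx1. Those of Xpr1, Ano6 and Ppa1 were 0.46 to 0.78, 0.52 to 0.58 and 0.41 to 0.52. None of the 5 calls held without vehicle replicate 1 or 2, where fewer genes were called over all genes too. The adjusted p there was 0.0628 and 0.0723 for Enpp3, 0.122 and 0.0983 for Panx1, 0.187 and 0.172 for Xpr1, 0.129 and 0.136 for Ano6 and 0.212 and 0.165 for Ppa1. Leaving out PDGF-BB replicate 1 or 2 gave 1 and 3 calls, respectively.

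Of 20 measured factors and matrix genes of bone and cartilage, 2 rose, 3 fell and 15 were not called, with a median log2 fold change of -0.05. The share called is near the 27.7% of all genes. Twist2, a basic helix-loop-helix factor that delays osteoblast maturation, read 82.5 and 77.4 with vehicle and 617 and 562 with PDGF-BB. On the log2 scale it rose by 2.66 (SE 0.10, limma adjusted p 0.000710). Mepe, a phosphoprotein of mineralized matrix, rose by 2.34 (SE 0.14, limma adjusted p 0.00188), from 38.7 and 33.2 to 274 and 222. Its vehicle readings lay below the background guide, and the size ran from 1.64 with an offset of 64 to 2.75 with an offset of 1. Cdh11, a cadherin of osteoblasts and mesenchymal cells, fell by 1.15 (SE 0.10, limma adjusted p 0.00422), and Pth1r, the receptor of parathyroid hormone, by 1.21 (limma adjusted p 0.00546, SE 0.12), with 1 of its 2 probe sets called. Fgfr3, a receptor of growth plate cartilage, fell by 0.43 (SE 0.08, limma adjusted p 0.0289), and by 0.62 in its other probe set, which was also called. The calls of Twist2, Mepe and Cdh11 held without any 1 array, while that of Pth1r ended without vehicle replicate 1 (0.0508) and that of Fgfr3 without each array (0.0651 to 0.194). The list had 3 calls without vehicle replicate 1. The structural matrix genes Col1a1, Col1a2, Sparc, Bgn and Postn, all above 10000 with vehicle, were not called, with log2 fold changes of -0.14 to 0.19.

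**Figure D4:**
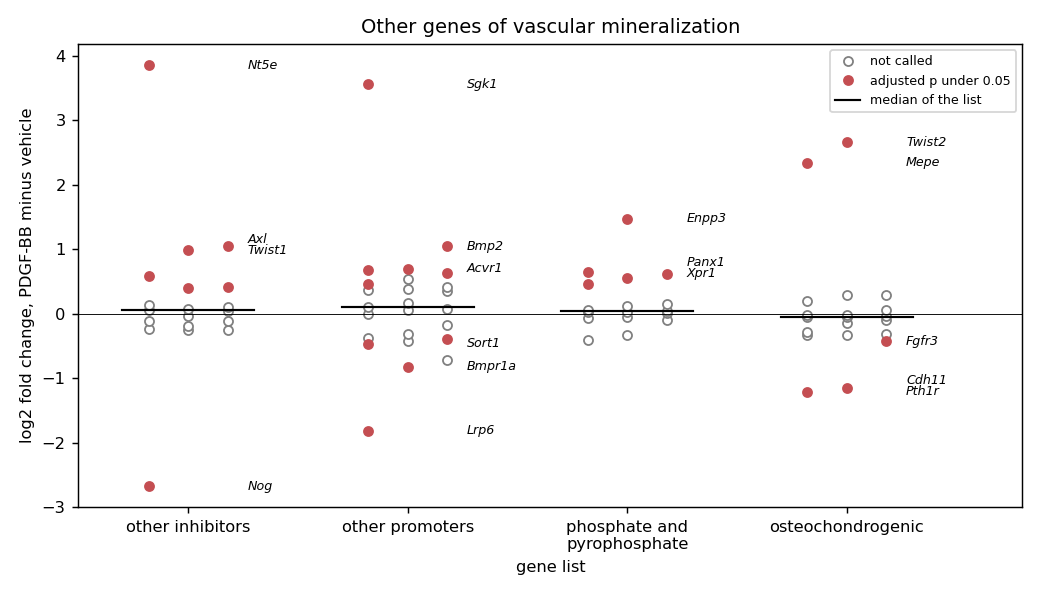
Log2 fold change (vertical axis) of each measured gene on 4 further lists, with called genes filled, genes not called open and a bar at the median of each list. The medians, 0.06, 0.09, 0.05 and -0.05, lie near 0, and single genes such as Nt5e at 3.85 and Nog at -2.68 stand far from them.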

How the data were processed

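The authors deposited 1 table of 4 arrays. Judged by its values (above 0, with decimals, up to 17218), it holds linear intensities, 1 per probe set. The authors made these intensities from biotin-labelled cRNA hybridised to Affymetrix arrays, per the labels' protocols; no source used here gives the software, background correction or scaling. Groups and replicate numbers come from the sample titles.

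After leaving out 57 control probe sets, log2(intensity + 16) of 23707 probe sets was fitted without further scaling with limma 3.58.1 (R 4.3.3; lmFit, eBayes). Two-sided p-values were adjusted over all of them by the Benjamini-Hochberg method, with a threshold of 0.05. The offset of 16 understates changes of dim genes. There were 2 residual degrees of freedom and a prior of 2.40, so the number of arrays limits the precision. Intensities of different probe sets were set against each other only to choose a gene's probe set, to rank Spp1 within its array and to judge nearness to background.

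A platform annotation dated 2016 named 1 symbol for 17279 probe sets, more than 1 for 373 and no symbol for 6055. A gene stands for its single-symbol probe set with the highest mean over the 4 arrays. The listed genes, the further lists, the naming rule and the alternatives were chosen with earlier results of these data known. Named were all listed genes, up to 3 called increases and 3 called decreases of each further list with no overlap of arrays, Egr1, Klf4 and 3 smooth muscle markers. The fit was run on data simulated with its own moderated spreads, so recovery there does not measure how many changes are missed in these arrays. With unmoderated spreads, tried first, it recovered fewer of the large changes, and the simulation was changed, not the fit. A gene not called may therefore still have changed. Alternatives were offsets of 1 and 64, 3 scalings, a filter on dim probe sets, a variance trend, a replicate block, another choice of probe set per gene, Slc20a2 left out of the promoters, and each array left out, where the lone array of a group is assumed to vary like the other group's.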

Additional observations from a re-analysis of the deposited data

How the results depend on the processing

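Mgp, Enpp1, Slc20a1 and Slc20a2 kept direction and call under each of their 13 alternatives, and Spp1 and Ankh kept direction, with calls lost only in fits without 1 array. The inhibitors' median was 0.93 with an offset of 64 and 1.04 to 1.25 without 1 array. The promoters' median was 0.87 with array medians subtracted, 1.60 with dim probe sets left out (3 genes, Msx2 being dim), -0.0085 without Slc20a2 and 0.79 to 0.90 without 1 array. Of values not called, Alpl turned to 0.023 with array medians subtracted and 0.014 after cyclic loess. Msx2 turned to 0.068 and 0.011 under these, and ran from -0.22 to 0.20 without 1 array. Tagln, at 0.024, became -0.028 with quantile normalization, -0.11 with cyclic loess, and ran from -0.0081 to 0.056 without 1 array.

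With an offset of 1, the calls were 6 for other promoters and 3 for phosphate handling; with a variance trend they were 8 for osteochondrogenic genes. Without 1 array they ranged over 3 to 4 for other inhibitors, 2 to 6 for other promoters, 0 to 3 for phosphate handling, 3 to 4 for osteochondrogenic genes and 791 to 2692 for all genes. By limma without vehicle replicate 1 or 2, phosphate handling had 0 calls, beside 4 and 5 genes at an unadjusted p under 0.05. Of calls among all genes, 44.9% were increases; the share was 62.1% and 61.9% in the fits leaving out vehicle replicate 1 or 2 and 52.6% with array medians subtracted. The causes were not tested. With an offset of 1, Bmpr1a, Sort1, Xpr1, Fgfr3, Myh11, Chrd, Tnfrsf11b, Tgm2, Bmp6 and Ppa1 also lost their calls (adjusted p 0.0519 to 0.0759), and Bmp6 did so under all 3 scalings (0.0623 to 0.0926) and Tnfrsf11b after quantile normalization (0.0661). The replicate block kept all 6 calls of the listed genes, ended those of Sort1 (0.0613), Fgfr3 (0.0734), Chrd (0.0796), Tnfrsf11b and Bmp6 (0.0949 each), Atf4 (0.0617) and Ppa1 (0.0674), and gave 2997 calls over all genes, against 3574. The labels do not say that the numbers pair the samples, and the replicate differences of the groups correlated at -0.098 over probe sets. With the other choice of probe set, Panx1 (0.744) and Tgm2 (0.0854) lost their calls. For Alpl, Msx2, the vehicle readings of Enpp1, Nt5e, Enpp3, Mepe, Bmp2, Twist2 and Sgk1 and the PDGF-BB readings of Nog, signal near background limits what can be measured.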
